A study of Mus musculus with 39 samples.

Results

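The same kinds of pluripotent mouse cells were sequenced for separate tables of one study, and 14 of its 39 libraries were compared here by that division. On one side stood the 8 libraries of the lines' tables. These were 2 libraries of a female embryonic stem (ES) cell line (ES) and 1 library from each of 6 lines derived from granulosa cells (gPSC lines 2, 4, 10, 11, 15 and 16). On the other side stood the 6 libraries of undifferentiated cells in the table on induction of primordial germ cell-like cells (PGCLC). These were 3 of a female ES cell line (ESC) and 3 of line gPSC4. All 14 libraries carry the strain label C57BL6/CBA, and no genetic change is given for these cells. The treatment protocol gives crotonic acid for part of the induction of pluripotent cells and does not say which gPSC lines had it. Each gPSC line is represented by 1 library in the lines' tables. The libraries were grouped by their labels, with earlier results of these data known. The labels do not say whether ES and ESC are 1 line, whether replicates were separate cultures, or which medium or feeder cells were used. Gene levels were deposited as FPKM, read fragments per kilobase of gene and per fixed number of fragments.

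Mouse pluripotent cells move along a range of states. Naive cells, kept by LIF, Wnt and low MEK signalling, use Esrrb, Klf4, Tfcp2l1 and Zfp42. Cells moving towards the primed state of the postimplantation epiblast switch on Fgf5, Otx2, Pou3f1 and the de novo DNA methyltransferases. Pluripotent lines are often grown on a layer of embryonic fibroblasts, whose collagens and other matrix genes then enter a bulk library. Epiblast-like cells (EpiLC), made from the ESC and gPSC4 cells with bFGF and Activin A, were sequenced in the induction table as well, and so were fibroblasts (MEF) in the ES table. Both serve below as side values.

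Because the tables and the authors' pipelines differ with the side compared, levels were turned into percentile ranks within each library (100 for the highest gene) over the 12967 of 17209 shared genes with at least 1 FPKM in at least 2 of the 14 libraries. No test was possible, and no p-value is given. A gene was called when the 8 and the 6 libraries did not overlap, their mean ranks differed by at least 10 points, and the same held for line gPSC4 alone against the 3 gPSC4 libraries. By this rule 2711 genes (20.9% of those ranked) were called higher in the lines' tables and 2965 (22.9%) higher in the induction table. These shares are the background for every list below. A gene near the top of the ranking has little room for a difference of 10 points: of the 1051 genes with a mean rank of 90 or more, 18 and 21 were called in the 2 directions. The median difference over all ranked genes, lines' tables minus induction table, was -0.80 points.

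Markers placed all 14 libraries among pluripotent cells. Pou5f1, Sox2, Nanog, Zfp42 and Esrrb were detected in every library, with lowest levels of 230, 26.8, 159, 34.0 and 103 FPKM. Of the granulosa markers, Fshr was listed at 0 in all 14 libraries and the highest levels of Foxl2, Inha and Cyp11a1 were 0.280, 2.49 and 7.25 FPKM. Those of the endoderm markers Gata6, Sox17 and Gata4 were 1.77, 1.95 and 3.50 FPKM. The 4 Y-linked genes examined summed to between 2.26 and 6.71 FPKM in a library. The fibroblast marker Col1a1 was present throughout, at 97.1 FPKM or more. In bulk samples, fewer cells of a type and less RNA per cell cannot be told apart. The induction table resolved into whole reads (within 0.01 reads for 12922 of 13007 genes examined), with 19827282 to 25223994 assigned reads in ESC and 10919740 to 13554246 in gPSC4. The depth of the lines' tables is unknown.

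Libraries of one side ranked genes almost alike, and libraries of different sides did not. Across the ranked genes, which are not independent of each other, Spearman's rho was 0.983 to 0.996 among gPSC lines, 0.942 to 0.954 between ES and gPSC lines, and 0.985 to 0.990 between ESC and gPSC4. Between the sides it was 0.766 to 0.805. It was 0.768 to 0.773 for ES with ESC and 0.791 to 0.793 for line gPSC4 with the gPSC4 libraries. The step between ES and gPSC lines, and that between ESC and gPSC4, was small beside the step between sides. ES and gPSC lines lie in separate tables, so origin and table cannot be told apart for them. The call without the line condition, applied within a side, named 935 genes (7.21%) higher in ES and 1040 (8.02%) higher in gPSC lines. It named 60 (0.463%) higher in gPSC4 and 50 (0.386%) higher in ESC. The granulosa cell libraries of the lines table and of the ES table had a rho of 0.983 over 11096 genes, and 124 genes (1.12%) and 204 genes (1.84%) differed by at least 10 points.

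Line gPSC4, the 1 line labelled on both sides, showed the division as well. Line gPSC4 alone gave 3158 genes (24.4%) higher in its lines' table library and 3397 (26.2%) higher in its 3 induction libraries. ES against ESC gave 3298 (25.4%) and 3662 (28.2%). The 5365 genes called the same way in both were 81.8% of the calls for line gPSC4 and 77.1% of those for ES, and 52 were called in opposite directions. The 2 comparisons share no library, but both use the induction table. On the other side, ES and line gPSC4 came from separate tables. Without the line condition, 2860 genes (22.1%) were called higher in the lines' tables and 3157 (24.3%) higher in the induction table. Of these 6017, 341 were not called for line gPSC4 alone and are not counted further.

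**Figure D1:**
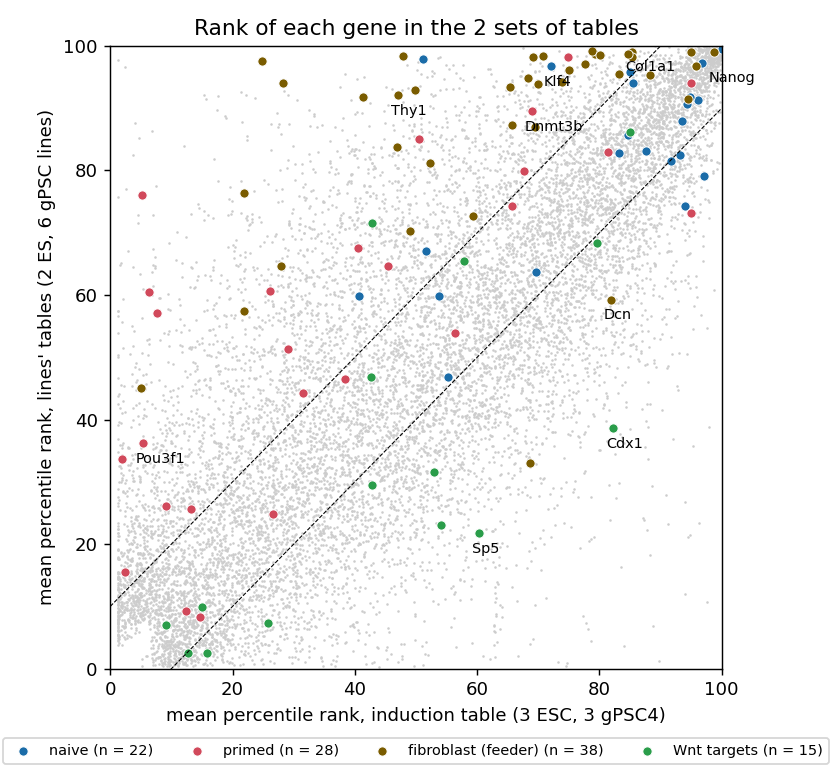
Each point is 1 of 12967 genes, at its mean percentile rank in the 6 libraries of the induction table (x) and in the 8 libraries of the lines' tables (y); dashed lines lie 10 points from equality. Nanog sits in the top corner, while Dnmt3b, Pou3f1 and most fibroblast genes lie above the band and Sp5, Cdx1 and Dcn below it.

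Promoters of 2 genes that the results turn on, 1 from each direction, are shown from 250 bases before to 50 after the start in RefSeq (GRCm38.p6). Dnmt3b, a de novo DNA methyltransferase, ranked higher in the lines' tables. Its promoter lies on the plus strand at chr2:153649199-153649498, and capitals mark the 4 GC boxes (GGGCGG or its reverse complement). Sp5, a direct target of Wnt signalling, ranked higher in the induction table. Its promoter lies on the plus strand at chr2:70474673-70474972, and capitals mark the single TCF/LEF motif (CTTTGAT or its reverse complement), the letters bound by the factors at the end of the Wnt pathway. 
Dnmt3b: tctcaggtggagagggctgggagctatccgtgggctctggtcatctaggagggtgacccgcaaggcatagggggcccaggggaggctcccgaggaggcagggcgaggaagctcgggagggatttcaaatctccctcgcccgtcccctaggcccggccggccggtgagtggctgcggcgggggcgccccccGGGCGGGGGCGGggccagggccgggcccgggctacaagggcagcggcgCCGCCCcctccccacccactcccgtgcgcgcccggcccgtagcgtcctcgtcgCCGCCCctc
Sp5: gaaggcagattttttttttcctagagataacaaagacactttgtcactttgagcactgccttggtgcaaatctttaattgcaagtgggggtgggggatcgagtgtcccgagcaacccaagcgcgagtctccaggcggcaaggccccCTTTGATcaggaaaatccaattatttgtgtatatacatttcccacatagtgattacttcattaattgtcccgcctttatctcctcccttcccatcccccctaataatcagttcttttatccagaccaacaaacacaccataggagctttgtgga
The GC content of the 2 stretches was 76.0% and 45.0%. The GC box was found in 35.9% and the TCF/LEF motif in 3.72% of 27025 promoters of the same length, 1 per gene symbol. Each motif was absent from the other of the 2 promoters. Of the 6 Wnt targets called higher in the induction table, 4 matched the promoter table and Sp5 alone of these held the TCF/LEF letters. A match of letters is a description and not a binding site.

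Naive genes were split between the directions. Of 22 naive genes ranked, 4 were called higher in the lines' tables (Klf2, Klf4, Esrrb and Nr5a2), 4 higher in the induction table (Tfcp2l1, Zfp42, Tcl1 and Socs3) and 14 neither way. That is 18.2% in each direction, close to the background, and the median difference was -1.71 points. The summed level of the list was not balanced: it held 0.489% to 0.623% of summed FPKM in the lines' tables and 1.12% to 1.43% in the induction table. All 8 called genes ranked lower in EpiLC than in every ESC and gPSC4 library. The list was made of naive genes, so this does not separate the directions, and the share over all called genes was not taken.

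Nanog, the homeobox factor of the naive epiblast at chr6:122707489-122714633 (GRCm38), was near the top everywhere and not called. Its percentile ranks were 98.0 and 98.0 in ES, 96.4, 97.1 and 97.7 in the gPSC lines (lowest, median and highest), 99.2, 99.1 and 99.0 in ESC, and 99.3, 99.1 and 98.9 in gPSC4. The groups did not overlap, but the means differed by -1.74 points. Klf4 encodes a zinc finger factor downstream of LIF. Its ranks were 96.2 and 96.3 in ES, 96.5, 96.8 and 97.8 in the gPSC lines (lowest, median and highest), 72.4, 70.2 and 72.4 in ESC, and 74.4, 72.1 and 70.5 in gPSC4. All 8 libraries of the lines' tables lay above all 6 others, by 24.8 points on average. Klf2, a relative with a similar role, differed most among naive genes, with ranks of 97.3 to 98.3 in the lines' tables and 46.0 to 55.9 in the induction table and a difference of 46.8 points. Esrrb, an orphan nuclear receptor, ranked 94.8 to 96.4 in the lines' tables and 83.5 to 86.1 in the induction table, and Nr5a2, a nuclear receptor that can drive Pou5f1, 53.7 to 69.1 in the lines' tables and 36.5 to 43.2 in the induction table.

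The opposite direction held for other members of the same network. Tfcp2l1 is a transcription factor downstream of LIF. Its ranks were 87.4 and 87.5 in ES, 68.1, 77.4 and 81.8 in the gPSC lines (lowest, median and highest), 97.2, 97.0 and 96.9 in ESC, and 98.0, 97.1 and 96.8 in gPSC4. The lines were lowest, ES stood between, and the induction libraries were highest. Zfp42 (Rex1), a classical marker of naive cells, ranked 81.6 to 83.6 in the lines' tables and 92.8 to 93.5 in the induction table. Tcl1, an Akt coactivator, ranked 67.6 to 80.8 in the lines' tables and 93.3 to 95.1 in the induction table, and the LIF target Socs3 77.7 to 85.4 in the lines' tables and 91.2 to 92.0 in the induction table. Tbx3 ranked 82.5 to 89.6 in the lines' tables and 83.0 to 85.5 in the induction table, Prdm14 39.9 to 56.3 in the lines' tables and 53.4 to 56.7 in the induction table and Dppa3 34.3 to 79.2 in the lines' tables and 46.7 to 55.2 in the induction table, and each of these 3 overlapped or missed 10 points. Once ranks were adjusted for gene lengths and GC content, Esrrb, Zfp42 and Socs3 were no longer called.

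Core pluripotency genes were mostly not called (7 of 16 had a mean rank of 90 or more), and Sox2 differed most among them. Of 16 genes ranked, 3 were called higher in the lines' tables (Sox2, Lin28a and L1td1) and 0 higher in the induction table, and the median difference was 1.84 points. Sox2, the partner of Pou5f1 on DNA, had ranks of 96.4 and 96.7 in ES, 95.2, 96.4 and 96.7 in the gPSC lines (lowest, median and highest), 63.3, 62.7 and 62.5 in ESC, and 61.7, 60.4 and 61.6 in gPSC4. It was among the most highly ranked genes in all 8 libraries of one side and in none of the 6 of the other. Over all 21 libraries of the induction table, other stages included, Sox2 ranked 27.7 to 63.3. In FPKM the values were 151 and 163 in ES, 119.7, 154 and 170.1 in the gPSC lines (lowest, median and highest), 31.6, 30.7 and 30.4 in ESC, and 29.1, 26.8 and 28.3 in gPSC4. Pou5f1 itself (Oct4) ranked 99.4 to 99.6 in the lines' tables and 92.5 to 93.1 in the induction table, a difference of 6.67 points that missed the threshold of 10. Lin28a, an RNA-binding regulator of let-7, ranked 93.0 to 96.1 in the lines' tables and 81.5 to 82.9 in the induction table.

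**Figure D2:**
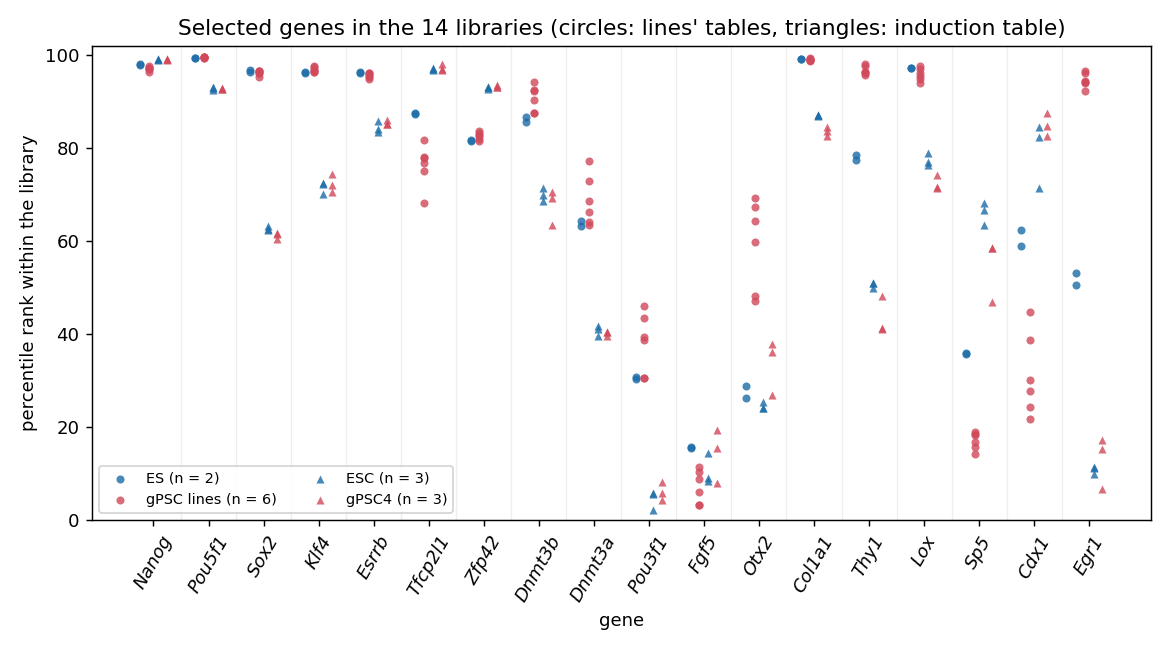
Percentile rank (y) of 18 genes (x) in each of the 14 libraries; circles are ES and gPSC lines of the lines' tables, triangles ESC and gPSC4 of the induction table, and blue and red mark ES-derived and granulosa-derived cells. Circles lie above triangles for Sox2, Klf4, Dnmt3b, Dnmt3a, Pou3f1, Thy1 and Egr1, below them for Tfcp2l1, Zfp42, Sp5 and Cdx1, and overlap them for Fgf5 and Otx2.

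Genes of the primed state included several called higher in the lines' tables. Of 28 ranked, 13 were called higher there (46.4%, beside 20.9% of all genes), 2 higher in the induction table (7.14%) and 13 neither way. The median difference was 12.9 points, beside -0.80 over all genes. It was 17.4 points for line gPSC4 alone and 14.8 for ES against ESC. The list held 0.1497% to 0.199% of summed FPKM in the lines' tables and 0.0965% to 0.113% in the induction table. The 2 genes that went the other way were Lefty2, a Nodal inhibitor, and T (Brachyury).

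Dnmt3b, at chr2:153649450-153687730 (GRCm38), had ranks of 85.6 and 86.6 in ES, 87.5, 91.3 and 94.2 in the gPSC lines (lowest, median and highest), 69.9, 68.6 and 71.5 in ESC, and 70.7, 69.3 and 63.5 in gPSC4. The lines were highest, ES followed, and all 6 induction libraries were lower, with a difference of 20.7 points. In FPKM the values were 42.9 and 45.6 in ES, 49.5, 71.3 and 96.6 in the gPSC lines (lowest, median and highest), 45.0, 42.3 and 49.9 in ESC, and 46.9, 44.0 and 31.1 in gPSC4, which overlap between the sides. All FPKM of a library summed to 461046 to 524438 in the lines' tables and to 1028505 to 1055287 in the induction table, so FPKM values are not on 1 scale. Dnmt3a, the second de novo methyltransferase, had ranks of 63.2 and 64.4 in ES, 63.4, 67.4 and 77.2 in the gPSC lines (lowest, median and highest), 41.1, 41.7 and 39.7 in ESC, and 39.6, 40.4 and 40.6 in gPSC4. Its cofactor Dnmt3l ranked 96.9 to 98.8 in the lines' tables and 72.1 to 77.2 in the induction table. Its exons overlap those of another coding gene. Pou3f1 (Oct6), a POU factor of the primed epiblast, had ranks of 30.4 and 30.7 in ES, 30.6, 39.1 and 46.0 in the gPSC lines (lowest, median and highest), 5.89, 5.54 and 2.19 in ESC, and 8.24, 4.32 and 5.73 in gPSC4. It was low on both sides and lowest in the induction table.

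Zic2, a zinc finger factor, differed most of the primed list. Its ranks were 79.6 and 78.8 in ES, 61.9, 78.8 and 82.9 in the gPSC lines (lowest, median and highest), 4.14, 2.83 and 6.42 in ESC, and 4.07, 7.00 and 6.22 in gPSC4, that is, well expressed in all 8 libraries of one side and near the floor in the other 6. Foxd3, a forkhead repressor, ranked 43.8 to 74.2 in the lines' tables and 5.66 to 7.62 in the induction table, and Sox3, a relative of Sox2, 24.5 to 40.6 in the lines' tables and 1.018 to 4.39 in the induction table. Fgf5 and Otx2, the textbook pair for this state, were not called. Fgf5 ranked 3.13 to 15.7 in the lines' tables and 7.87 to 19.3 in the induction table, at or under 2.25 FPKM in all 14 libraries. Otx2 had ranks of 26.3 and 28.8 in ES, 47.1, 62.1 and 69.2 in the gPSC lines (lowest, median and highest), 25.4, 24.1 and 24.1 in ESC, and 37.8, 36.2 and 26.8 in gPSC4. The lines were above all induction libraries, but ES overlapped them.

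EpiLC of the induction table gave side values for these genes. Of the 13 primed genes called higher in the lines' tables, 9 ranked higher in all 6 EpiLC libraries than in every ESC and gPSC4 library (Pou3f1, Dnmt3a, Dnmt3b, Sox3, Fgfr1, Foxd3, Sall2, Nes and Krt18). The list was made of genes of the primed state, and the share over all called genes was not taken. EpiLC ranked 97.1 to 97.5 for Dnmt3b, 95.2 to 95.9 for Dnmt3a, 51.0 to 61.2 for Pou3f1, 68.5 to 76.3 for Otx2 and 84.8 to 90.04 for Fgf5. In rank, the lines' tables stood between stem cells and EpiLC for Dnmt3b, Dnmt3a and Pou3f1. They stood with the stem cells for Fgf5. Tables and pipelines differ, so these ranks do not place the cells between states. For 7 of the 13 genes, among them Zic2, Foxd3, Sox3 and Dnmt3l, the 8 libraries of the lines' tables lay above all 21 libraries of the induction table, EpiLC, PGCLC and germ cells included. That is 53.8%, under the 71.2% of all genes called higher in the lines' tables. For Zic2 the EpiLC ranks were only 6.05 to 16.1.

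**Figure D3:**
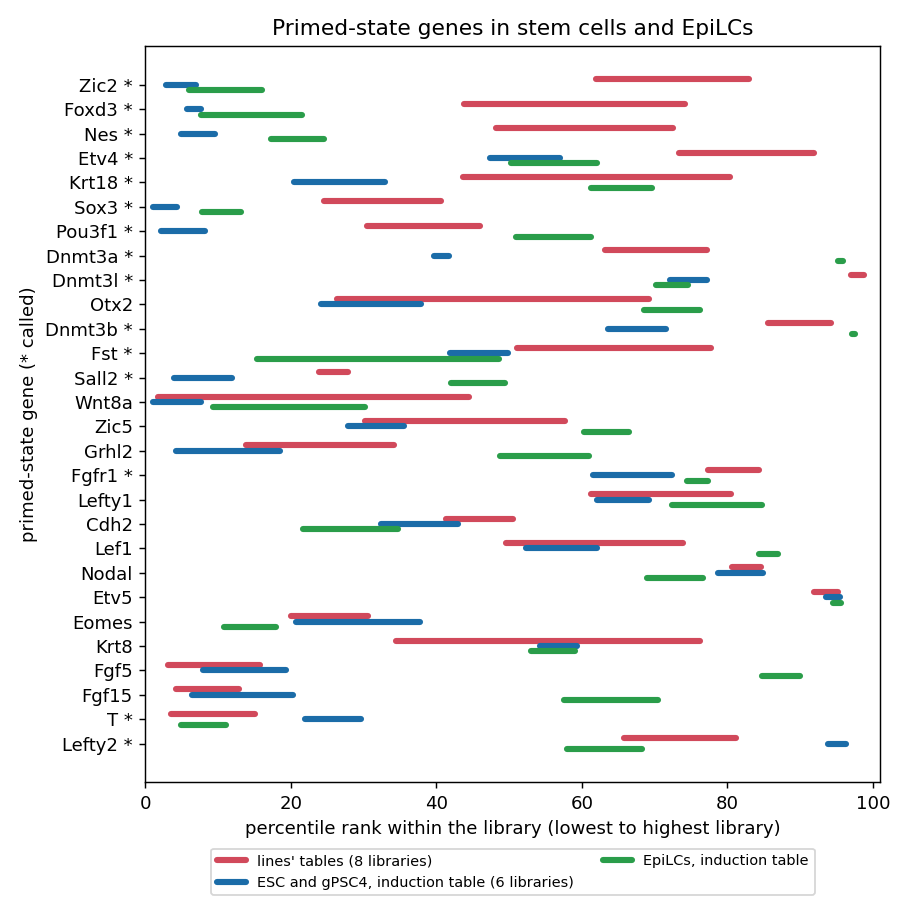
Lowest to highest percentile rank (x) of 28 primed-state genes (y; an asterisk marks a called gene) in the 8 libraries of the lines' tables (red), the 6 of ESC and gPSC4 (blue) and the 6 of EpiLC (green). For Dnmt3a, Dnmt3b and Pou3f1 red lies between blue and green; for Zic2 and Foxd3 red lies above both; for Fgf5 red and blue overlap far under green.

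A minority of the primed genes called higher in the lines' tables were high in fibroblasts. Of those 13 genes, 4 had a higher level in MEF than in ES of the same table (Fgfr1, Sall2, Nes and Fst). The others did not, and Dnmt3b was at 0.670 FPKM, Pou3f1 at 0.340 and Dnmt3l at 0.420 in MEF. Zic2 was at 2.17. The share over all called genes was not taken, and the part of fibroblast RNA in the 4 was not tested.

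Fibroblast genes, here the genes of a feeder layer, formed the list with the most calls. Of 38 ranked, 28 were called higher in the lines' tables (73.7%, beside 20.9% of all genes), 2 higher in the induction table and 8 neither way, with a median difference of 21.3 points. All 28 were higher in MEF than in ES of the same table, and so were the 2 called the other way. The list was made of fibroblast genes, so this does not separate the directions. Of the markers Col1a1, Col1a2, Col3a1, Postn, Thy1, Fbn1 and Lox, none was at 0 in any of the 14 libraries. The whole list made up 1.498% to 1.582% of the summed FPKM of shared genes in ES and 1.15% to 2.23% in the gPSC lines, but 0.361% to 0.375% in ESC and 0.300% to 0.327% in gPSC4. In ES it reached 19.2% and 20.4% of its summed level in MEF of that table. Which cells carried this RNA was not tested.

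Col1a1, the chain of type I collagen at chr11:94936224-94953042 (GRCm38), had ranks of 99.2 and 99.2 in ES, 98.8, 99.1 and 99.3 in the gPSC lines (lowest, median and highest), 87.1, 87.0 and 87.2 in ESC, and 82.7, 84.5 and 83.6 in gPSC4. All 8 libraries of the lines' tables held it near the top of the ranking, above every induction library. In FPKM the values were 641 and 597 in ES, 402, 523 and 902 in the gPSC lines (lowest, median and highest), 137, 133 and 136 in ESC, and 97.1, 111 and 104 in gPSC4, beside 4182 in MEF of the ES table and 5157 in MEF of its own table. The rank difference of 13.7 points turned in sign once ranks were adjusted for lengths and GC content (-3.45 points), and so did that of fibronectin (Fn1, 12.99 and -4.46 points). Thy1, a surface glycoprotein of fibroblasts, had ranks of 78.4 and 77.4 in ES, 95.7, 96.4 and 98.0 in the gPSC lines (lowest, median and highest), 50.0, 51.1 and 50.9 in ESC, and 48.2, 41.3 and 41.1 in gPSC4. The lines stood above ES and both stood above the induction libraries, by 45.0 points. The collagen chain Col5a1 ranked 91.5 to 96.3 in the lines' tables and 24.5 to 31.4 in the induction table. The fibrillin gene Fbn1 ranked 64.5 to 87.7 in the lines' tables and 18.6 to 24.2 in the induction table, the contractile gene Tagln 97.6 to 98.9 in the lines' tables and 38.6 to 58.3 in the induction table and the intermediate filament gene Vim 99.1 to 99.4 in the lines' tables and 74.0 to 82.5 in the induction table.

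The 2 fibroblast genes that went the other way were the small leucine-rich proteoglycans Dcn (decorin) and Lum (lumican). Dcn had ranks of 35.1 and 28.0 in ES, 60.9, 66.4 and 79.0 in the gPSC lines (lowest, median and highest), 82.7, 82.9 and 84.4 in ESC, and 80.3, 80.2 and 80.7 in gPSC4. The induction libraries were highest, the lines lower, and ES lowest. Lum had ranks of 6.46 and 10.3 in ES, 35.7, 37.5 and 51.3 in the gPSC lines (lowest, median and highest), 73.1, 70.9 and 71.0 in ESC, and 65.6, 65.7 and 65.3 in gPSC4, in the same order of groups. Both genes also differed between the 2 MEF libraries, with 49.8 FPKM for Dcn in MEF of the ES table and 126 in MEF of its own table, and with 11.9 and 83.6 FPKM for Lum. Sparc (98.9 to 99.2 in the lines' tables and 98.6 to 98.9 in the induction table) and Fstl1 (95.6 to 98.2 in the lines' tables and 94.7 to 96.4 in the induction table), both abundant in fibroblasts, were among the 8 not called.

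The endoderm list holds basement membrane genes that fibroblasts also express. In this list, 12 genes were ranked, of which 5 were called higher in the lines' tables and 1, Sox7, higher in the induction table. The 5 were the basement membrane genes Col4a1, Col4a2, Lamb1 and Lamc1, and the endocytic adaptor Dab2. Col4a1 ranked 88.7 to 94.5 in the lines' tables and 20.6 to 26.5 in the induction table, and its level in MEF was 524 FPKM. Exons of Col4a1 and Col4a2 overlap each other. The imprinted growth factor Igf2 ranked 90.3 to 98.3 in the lines' tables and 64.4 to 68.7 in the induction table, with 2230 FPKM in MEF.

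Genes of the 2-cell-like state, which a small share of ES cells enters, were called higher in the lines' tables for 6 of 15 (Zscan4b, Zscan4c, Zscan4d, Zscan4f, Tcstv3 and Tmem92) and in the other direction for 0. As a share of summed FPKM the order was another. The list held 0.169% to 0.181% in ES and 0.112% to 0.124% in ESC, but 0.0218% to 0.0292% in the gPSC lines and 0.102% to 0.125% in gPSC4, so the lines lay under gPSC4. Of the 15 genes, 9 to 11 were at 0 in the gPSC4 libraries and 3 to 6 in ESC, but 0 in the lines' tables. The share in gPSC4 therefore rested on the few other genes. Counts of zeros depend on depth, which was lower in gPSC4 than in ESC and is unknown for the lines' tables. Zscan4f, a zinc finger gene linked to telomere elongation, had ranks of 98.7 and 98.6 in ES, 59.5, 69.3 and 79.9 in the gPSC lines (lowest, median and highest), 3.95, 3.57 and 3.93 in ESC, and 1.43, 1.48 and 1.57 in gPSC4. It was near the top in ES, intermediate in the lines and near the floor in the induction libraries. The list's median difference was 58.0 points for ES against ESC and 7.73 points for line gPSC4 alone. Zscan4 and Tcstv genes have near-identical copies, so their separate values are uncertain.

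Targets of FGF and MEK signalling were called higher in the lines' tables for 9 of 19 ranked (47.4%) and higher in the induction table for 2, with a median difference of 10.4 points. The 9 were the immediate early genes Egr1, Egr2, Fos, Jun, Junb and Ier3, and Phlda1, Spred1 and Spred2. The list held 0.0846% to 0.0859% of summed FPKM in ES and 0.126% to 0.217% in the gPSC lines, and 0.0911% to 0.1004% in the induction table, so on this measure ES lay under the induction libraries. Egr1, an early growth response factor, had ranks of 50.5 and 53.2 in ES, 92.2, 94.4 and 96.6 in the gPSC lines (lowest, median and highest), 11.2, 9.95 and 11.4 in ESC, and 17.3, 15.3 and 6.77 in gPSC4. The lines were near the top, ES near the middle, and the induction libraries near the floor. Fos ranked 82.8 to 97.1 in the lines' tables and 28.6 to 32.2 in the induction table, Jun 77.9 to 93.6 in the lines' tables and 46.7 to 61.4 in the induction table and Ier3 64.7 to 89.3 in the lines' tables and 39.3 to 55.2 in the induction table. The feedback inhibitor Spry4 (35.8 to 51.0 in the lines' tables and 57.4 to 70.3 in the induction table) and the ETS factor Etv1 (30.1 to 38.1 in the lines' tables and 47.9 to 54.2 in the induction table) went the other way, and the ERK phosphatase Dusp6 (52.5 to 76.0 in the lines' tables and 73.7 to 76.9 in the induction table) was not called. Of the 9 genes, 7 were higher in MEF than in ES, and Egr1 was at 76.8 FPKM in MEF. The share over all called genes was not taken, and the part of fibroblasts was not tested.

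Wnt targets had the lowest median difference of the 18 lists with at least 3 ranked genes. Of 15 ranked, 6 were called higher in the induction table (Sp5, Cdx1, Rnf43, Znrf3, Tnfrsf19 and T; 40.0%, beside 22.9% of all genes) and 1, the TCF factor gene Tcf7, higher in the lines' tables, with a median difference of -11.3 points. None of the 15 has exons that overlap another coding gene. The list held 0.0411% to 0.0430% of summed FPKM in ES, 0.0222% to 0.0299% in the gPSC lines and 0.0346% to 0.0482% in the induction table, so the lines were lower and ES overlapped. Sp5, whose promoter is printed above, had ranks of 35.6 and 35.9 in ES, 14.3, 17.5 and 18.9 in the gPSC lines (lowest, median and highest), 63.5, 66.6 and 68.2 in ESC, and 46.9, 58.6 and 58.6 in gPSC4. The lines were lowest, ES next, and every induction library was higher. Cdx1, a caudal homeobox gene, had ranks of 62.4 and 59.0 in ES, 21.8, 28.9 and 44.7 in the gPSC lines (lowest, median and highest), 71.5, 82.4 and 84.5 in ESC, and 82.7, 87.6 and 84.7 in gPSC4, in the same order. Of the 6 genes, 5 ranked lower in every EpiLC library than in every ESC and gPSC4 library, and EpiLC ranked 1.99 to 2.39 for Sp5. How many of all called genes do so was not counted. Axin2, the feedback inhibitor most used as a Wnt readout, was not called: it ranked 71.9 and 74.0 in ES, 34.6 to 41.4 in the lines and 42.0 to 43.5 in the induction table.

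**Figure D4:**
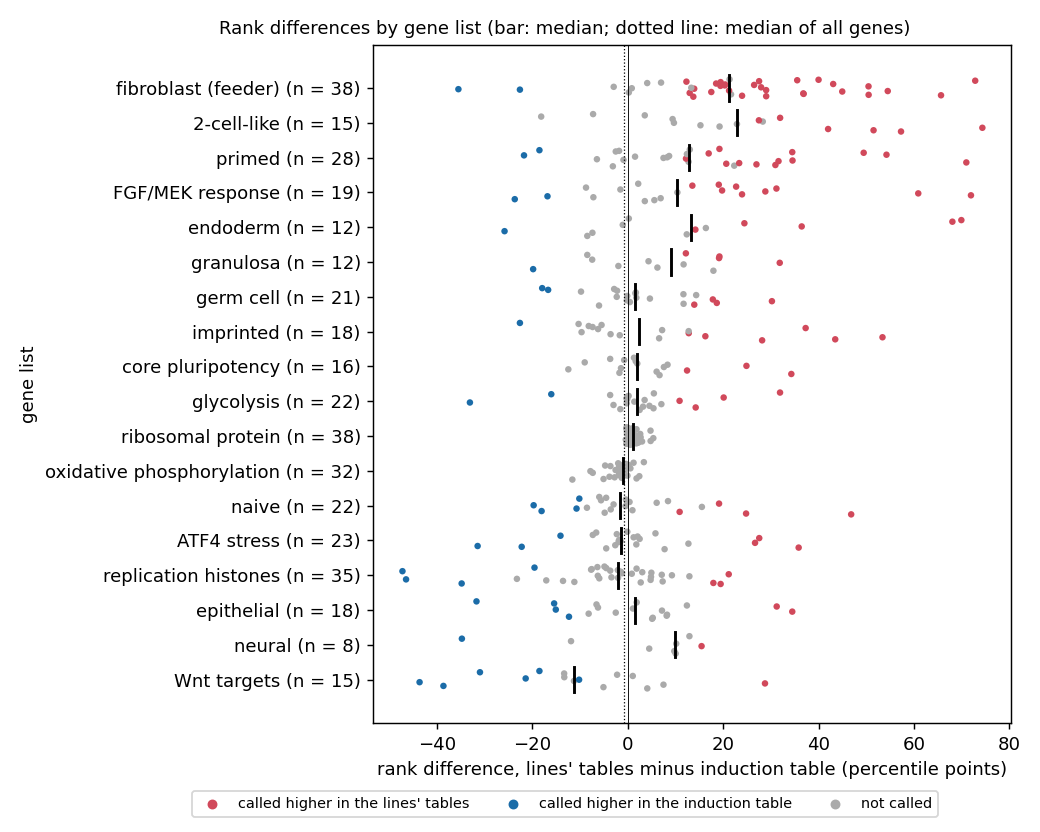
Rank difference (x, percentile points, lines' tables minus induction table) of each ranked gene in 18 lists (y), with the list median as a bar, red for genes called higher in the lines' tables and blue for the opposite. Fibroblast, 2-cell-like, primed and FGF/MEK genes lie mostly to the right, Wnt targets to the left, and oxidative phosphorylation and ribosomal protein genes, nearly all at a mean rank of 90 or more, have little room to differ.

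For housekeeping lists the rank call says little. Of 32 genes of oxidative phosphorylation and 38 ribosomal protein genes, 0 were called, but 31 and 38 of them had a mean rank of 90 or more, where few calls are possible. Their shares of summed FPKM differed, in opposite directions. Ribosomal protein genes held 9.49% to 11.8% in the lines' tables and 3.38% to 3.95% in the induction table. Genes of oxidative phosphorylation held 1.11% to 1.35% in the lines' tables and 2.05% to 2.30% in the induction table. Values of the induction table were per coding length, so shares of summed FPKM, here and for the lists above, may compare unlike measures. Of 22 glycolysis genes, 4 were called higher in the lines' tables (18.2%) and 2 higher in the induction table (9.09%). Gapdh, a glycolytic enzyme, was called, at rank 100.0 to 100.0 against 88.3 to 89.9. Its FPKM values were 4236 and 4369 in ES, 3654, 3960 and 4018 in the gPSC lines (lowest, median and highest), 159.6, 157 and 163 in ESC, and 174, 171 and 151 in gPSC4. Gapdh has many near-identical pseudogene copies, so its value depends on how the authors counted shared reads and is uncertain. The monocarboxylate transporter Slc16a3 ranked 75.9 to 94.0 in the lines' tables and 49.8 to 62.3 in the induction table and the aldolase gene Aldoc 27.5 to 51.3 in the lines' tables and 71.2 to 77.3 in the induction table, the opposite way.

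Smaller lists gave mixed directions. Of 23 targets of the stress factor ATF4, 3 were called each way, with Ddit4 (77.1 to 90.4 in the lines' tables and 47.5 to 51.2 in the induction table) and Chac1 (43.4 to 64.1 in the lines' tables and 79.3 to 84.3 in the induction table) as the ends of the range. Of 21 germ cell genes, 4 were called higher in the lines' tables and 2 (Prdm1 and Kit) higher in the induction table; the germ cell regulator Prdm1 ranked 11.1 to 20.98 in the lines' tables and 29.3 to 35.1 in the induction table. Of 12 genes of the granulosa list, 4 were called higher in the lines' tables (Inhba, Nr5a2, Fst and Wt1) and 1, Star, higher in the induction table. Of 18 imprinted genes the counts were 6 and 1, of 18 epithelial genes 2 and 4, of 8 neural genes 1 and 1, and of 35 replication histone genes 3 and 4. Histone genes have near-identical copies and their values are uncertain. Of the Y-linked genes, 2 were ranked and 0 called.

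The largest single differences of the 2 sides differed in exon overlap. Cmah, an enzyme of sialic acid synthesis, had ranks of 97.5 and 97.4 in ES, 95.5, 96.3 and 97.5 in the gPSC lines (lowest, median and highest), 2.84, 1.11 and 1.018 in ESC, and 1.43, 4.42 and 3.34 in gPSC4. Its level was 0 to 0.147 FPKM in ESC, while ES held 190 and 198 FPKM. Others at this end of the range were Fosb, H1fx, Rbmxl2, Basp1, Loxl2, Jund, Dcdc2c, Zscan4f, Taf15 and Egr1, with differences of 71.9 to 83.5 points. They include AP-1 genes (Fosb and Jund), a linker histone gene (H1fx) and a fibroblast-rich lysyl oxidase (Loxl2). None of these genes, Cmah included, has exons that overlap another coding gene.

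The 12 genes named for the largest differences towards the induction table all have such an overlap; the naming leaves out predicted genes (Gm and Rik symbols) and pseudogenes, some of which differ as much. They were Ascl4, Fam57b, Ramp2, Tceal7, Spata25, Nrg4, Pde6h, B3gnt8, Chadl, Sla2, Tmem91 and Tvp23a, with differences of -68.0 to -88.5 points. The partner lies on the opposite strand for 11 of them and on the same strand for Ramp2. Ascl4, a basic helix-loop-helix factor gene, had ranks of 0.289 and 0.339 in ES, 0.212, 1.97 and 2.45 in the gPSC lines (lowest, median and highest), 89.1, 90.1 and 90.1 in ESC, and 89.7, 89.6 and 89.9 in gPSC4. Its partner Rtcb, an RNA ligase gene, ranked 92.5 to 94.3 in the lines' tables and 92.8 to 93.5 in the induction table. Fam57b ranked 6.46 to 16.1 in the lines' tables and 97.4 to 98.0 in the induction table, beside 99.4 to 99.5 and 99.6 to 99.7 for its partner, the aldolase gene Aldoa. Ascl4 stayed at 88.0 to 91.6 in all 21 libraries of the induction table, whatever the cell type. Sla2, an adaptor protein gene, also differed within the lines' tables, with ranks of 69.7 and 72.2 in ES and 0.212 to 1.36 in the lines. Whether the authors' counting used strand is not given in the sources used here, so the values of such genes are uncertain.

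Over all ranked genes the same contrast held in smaller form. Of the 2794 genes with exons that overlap another coding gene, 881 (31.5%) were called higher in the induction table and 421 (15.1%) higher in the lines' tables. Of the 10173 without, the counts were 2084 (20.5%) and 2290 (22.5%). With the overlapping genes left out of the ranking, 4164 of 4374 calls remained. In the naive, primed and Wnt lists, 1, 1 and 0 of the ranked genes overlap another coding gene, and in the fibroblast list 4.

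Rank differences also varied with gene length and base composition. Values of the induction table were per coding length, without untranslated regions. Across 12883 genes the difference had a Spearman's rho of 0.38 with coding length, -0.30 with the ratio of transcript to coding length and 0.20 with GC content of the transcript. From the lowest to the highest decile of coding length the median difference went from -6.22 to 13.2 points. For gPSC4 minus ESC within the induction table, the 3 values of rho were -0.02, -0.03 and 0.01. For ES minus gPSC lines, the rho with GC content was -0.37, the opposite sign. With ranks adjusted for the 3 properties, 3934 of 5637 calls remained, and the median differences were 11.4 points for primed, 19.3 for fibroblast, -2.83 for naive and -14.7 for Wnt genes.

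**Figure D5:**
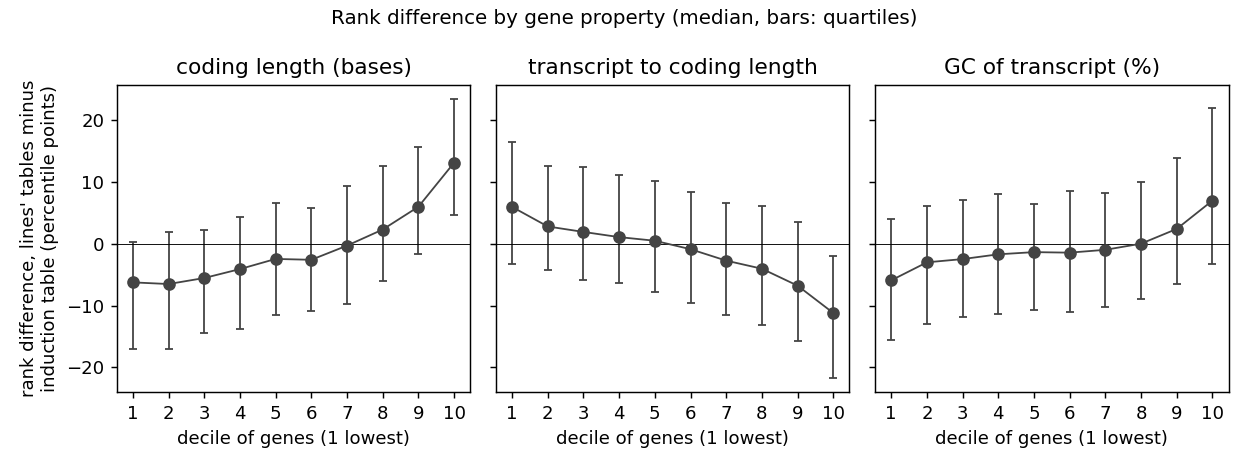
Median rank difference (y, percentile points, lines' tables minus induction table; bars give the quartiles) by decile of coding length, ratio of transcript to coding length and GC content (x), 1288 or 1289 genes in each. The median rises from -6.22 to 13.2 points over coding length, falls from 6.001 to -11.2 over the length ratio and rises from -5.89 to 7.02 over GC content.

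The other stages of the induction table gave a further comparison. Of the genes called higher in the lines' tables, 1929 of 2711 (71.2%) lay above all 21 libraries of the induction table. Of those called lower, 1695 of 2965 (57.2%) lay under all 21. The count was 27 of 28 for fibroblast genes, 7 of 13 for primed genes and 4 of 4 for naive genes called higher in the lines' tables. For core genes called higher there it was 3 of 3. It was 0 of 4 for naive genes and 1 of 6 (Znrf3) for Wnt targets called higher in the induction table, where other stages reached down to the level of the lines' tables.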

How the data were processed

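Bulk total RNA was extracted with a Qiagen RNA mini kit and sequenced from NEBNext Ultra libraries, per the labels' protocols. The submitters' processing notes name mm10, HISAT2, Bowtie2, RSEM, DESeq2 and R 3.4.2, with no role or order given. The authors deposited FPKM values in separate tables, per the file headers. The 3 ESC columns matched their group and not a numbered sample. The members and gene lists were chosen with earlier results of these data known.

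Tables of 20871, 17989 and 20350 genes were joined by symbol, and 12967 of 17209 shared genes passed 1 FPKM in 2 libraries. Ranks were midpoints scaled to 100. The call is described with the results; it is not a test. Gene models came from GENCODE M21, and exon overlaps from bedtools 2.31.1. Named genes were 20 fixed ones, up to 4 called genes of each list with the largest difference, and 12 per direction with the largest difference, a higher mean of at least 5 FPKM and a call that held after rescaling to transcript length, without predicted genes (Gm and Rik symbols), pseudogenes or ambiguous symbols. One gene is not reported here. Other list members are named after their values were seen. Alternatives concerned the filter, the threshold, log2 levels, lengths, GC content, overlapping exons and each library. Python 3.11.15, pandas 2.3.3 and matplotlib 3.10.9 were used.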

Additional observations from a re-analysis of the deposited data

Results flagged for a closer look

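Tbx3, a T-box factor of naive cells, stood out in 1 gPSC line. Its percentile rank was 89.0 in gPSC line 10 and 82.5 to 84.9 in the other 5 lines, and the gap took 0.63 of the whole range, beyond Dixon's 95% critical value for 6 samples. Chance gives such a gap in about 1 in 20 groups, and it was found for 1 of the 99 named genes ranked.

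Tbx3 also differed in direction by origin. ES minus ESC was 4.89 points, with both ES libraries above all 3 ESC libraries, and line gPSC4 minus gPSC4 was -1.24 points, with the line under all 3 gPSC4 libraries. The difference between origins was not tested.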

How the results depend on the processing

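The median difference of primed genes was 10.3 points with no filter, 16.9 with 5 FPKM, 15.1 rescaled to transcript length, 15.6 over genes whose coding length is at least 0.5 of the transcript, 14.8 for ES against ESC and 17.4 for line gPSC4. It was 0.96 and 1.31 as log2 of quantile-normalized FPKM plus 1 and plus 0.1. For fibroblast genes these were 16.0 and 26.8 by filter, 18.5 over long coding parts, 17.6 for ES, 25.2 for line gPSC4, and 2.67 and 2.70 as log2. For naive genes they were -4.77 over long coding parts, -0.31 for ES against ESC, -0.41 and -0.42 as log2, -2.83 adjusted for lengths and GC content, and -2.97 without overlapping genes. With 20 points, 1438 genes were called higher in the lines' tables and 1220 in the induction table. Over the 7241 genes with long coding parts the counts were 1452 and 1523, since fewer genes were ranked.

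Leaving out each library in turn gave 2691 to 2737 and 2940 to 2991 genes called in the 2 directions, except that leaving out gPSC line 4 also removed the condition on that line and gave 2873 and 3157. The medians were 12.7 to 14.9 points for primed (14.6 without gPSC line 2 and 14.9 without gPSC line 10), 20.4 to 22.5 for fibroblast and -1.98 to -1.60 for naive genes. Of 92 named genes called, the direction changed for Col1a1 (-3.45) and Fn1 (-4.46) alone, both when adjusted for lengths and GC content; the cause was not tested. The adjustment and the setting without overlapping genes were chosen after seeing the data. No paired analysis was possible because no test was made and the ESC columns carry no sample number. The unknown depth of the lines' tables limits what low ranks can show.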
